A study of Mus musculus with 54 samples.

Results

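The expression of 36 genes of amino acid supply and of the response to amino acid shortage was followed in naive CD4+ T cells before and after activation. They are 10 amino acid transporters, 5 enzymes of serine and glycine synthesis, 6 enzymes of the folate and methionine cycles, 6 ATF4 pathway and stress regulators, and 9 other amino acid enzymes. The genes were listed by name for what they are known to do, and each symbol was matched to an identifier among the 55385 genes of the count tables. Earlier results of these data were known when the list was made, so it was not chosen blind to them. All 36 had at least 1 count in both experiments, where 32290 and 27780 genes did, so none was lost to the filter on low counts.

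The cells came from C57BL/6 mice. They were left unstimulated (0 h) or kept for 4 h or 20 h on plate-bound anti-CD3 (3 µg/ml) with soluble anti-CD28 (1 µg/ml), together called TCR-CD28 stimulation. The CD5/CD6 experiment used cells enriched with magnetic beads from WT mice and from Cd5-/-, Cd6-/- and Cd5-/-Cd6-/- mutants. In the LAT experiment, WT (hDTR+) and Lat-/- (hDTR-) cells were sorted from pooled lymph nodes and spleens of Lat fl-dtr maT-Cre mice, so both groups carried the maT-Cre transgene, which acts in mature T cells. Each genotype had 3 libraries at each time, 36 and 18 libraries in the CD5/CD6 and LAT experiments, which the design calls biological replicates. CD5 and CD6 are receptors on the T cell surface whose neighboring genes were removed by 1 deletion in Cd5-/-Cd6-/- mice, and LAT is the adaptor that links the T cell receptor to its signaling enzymes.

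A resting T cell takes up few amino acids, and an activated one imports them for protein synthesis and for the carbon units that build nucleotides. Serine, imported or made from a glycolytic intermediate by PHGDH, PSAT1 and PSPH, is split by the SHMT enzymes into glycine and a carbon unit, which folate carries through the MTHFD enzymes to purine and thymidylate synthesis. ATF4 is a transcription factor that is made in larger amounts under amino acid shortage and that activates many transporter, serine and asparagine genes, while CHOP (encoded by Ddit3) and TRIB3 act downstream of it when stress lasts.

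The C/EBP-ATF element, a sequence that ATF4 binds with C/EBP partners, is shown first because several of the 36 genes carry it near their start. In RefSeq promoters on GRCm38.p6, which run from 250 bases before to 50 bases after each start, 32 of the 36 genes had an entry (Cth, Slc1a5, Slc7a5 and Slc38a1 had none). The element, searched as TGATGNAA on both strands, was in 7 of these 32 genes (21.9%) and in 4.51% of all 27025 genes with an entry, and 5 of the 32 have more than 1 start. The windows are written 5′ to 3′ on the strand of the gene, with the element in capitals.
Asns, chr6:7693210-7693248: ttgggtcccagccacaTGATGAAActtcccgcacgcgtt
Chac1, chr2:119351033-119351072: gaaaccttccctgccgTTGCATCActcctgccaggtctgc
Got1, chr19:43524684-43524723: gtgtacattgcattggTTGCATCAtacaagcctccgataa
Pycr1, chr11:120643828-120643867: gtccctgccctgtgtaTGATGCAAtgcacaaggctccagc
Slc1a4, chr11:20332700-20332727: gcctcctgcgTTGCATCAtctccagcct
Slc7a11, chr3:50443637-50443695: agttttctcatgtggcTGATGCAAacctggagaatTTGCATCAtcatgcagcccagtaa
Trib3, chr2:152344029-152344056: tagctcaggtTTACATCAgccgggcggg

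Slc7a11 held the element on both strands, 66 and 47 bases before its start, the Asns element began 23 bases before its start, and the Trib3 element began 15 bases after it. Chac1 lies on the plus strand and the other 6 genes on the minus strand. The E-box CACGTG, a palindrome that MYC family factors are known to bind, was in 2 of the 32 genes (6.25%, Cbs and Aldh18a1) and in 8.09% of all genes with an entry. A match says only that these letters are in the window.

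The libraries held 20554354 to 45222554 counts in the CD5/CD6 and 17784644 to 28501095 counts in the LAT experiment, and 3 counts in a library corresponded to 0.0663 to 0.146 and 0.105 to 0.169 CPM (counts scaled to the size of each library). The summed level of 6 CD4 T cell markers was 5474 to 7212 CPM and 6317 to 8340 CPM at 0 h. The summed level of 5 B cell markers was 59.9 to 538 CPM at 0 h and 1.24 to 4.46 CPM at 20 h in the CD5/CD6 experiment. That of 5 myeloid markers was 45.1 to 359 CPM at 0 h and 0.133 to 0.592 CPM at 20 h there. The part of either in the results was not tested. Lat was at 5.69 to 19.1 CPM in the libraries labelled Lat-/- and 92.2 to 351 CPM in the WT libraries of that experiment. At 0 h it was at 214 to 292 CPM in these WT cells and 649 to 792 CPM in WT cells from the CD5/CD6 experiment. The part of this gap in differences between the 2 sets of WT cells was not tested. At 0 h the second libraries labelled Cd5-/- and Cd6-/- went against their labels, with Cd5 at 129, 719 and 105 CPM in the 3 libraries labelled Cd5-/- and 724, 172 and 719 CPM in those labelled Cd6-/-. Cd6 was at 1298, 329 and 1084 CPM in the former and 349, 1203 and 251 CPM in the latter. In the third Lat-/- library at 20 h and the third WT library of the LAT experiment at 4 h several of the 36 genes stood apart. Some of the results that rest on these libraries are given with and without them, and the others only with them.

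To learn how these genes change with TCR-CD28 stimulation, stimulated WT cells were compared with unstimulated WT cells. No group is labelled as kept in culture for 4 h or 20 h without antibody. Effects of stimulation and of time in culture therefore cannot be told apart. A gene was called higher or lower when it changed more than 2-fold with an adjusted p under 0.05 in edgeR's quasi-likelihood test over all genes. At 20 h, 27 of the 36 genes were higher and 1 was lower in the CD5/CD6 experiment, where 12.3% of all genes were called higher and 17.3% lower. In the LAT experiment 27 were higher and 2 lower, against 10.8% and 12.7% of all genes, and 26 genes were called higher in both experiments. The median log2 fold change of the 36 genes was 1.88 and 1.73, and that of all genes tested was 0 in both. Genes with very few counts are among all genes tested. With edgeR's filterByExpr, a filter on low counts, the median of all genes was -0.14 and -0.08. At 4 h, 21 genes were higher and 0 lower in the CD5/CD6 experiment (8.24% and 11.1% of all genes), and 13 were higher and 1 lower in the LAT experiment (8.05% and 9.29%). Without the third WT library at 4 h, 12 were higher and 1 lower in the LAT experiment. The count of 0 in the CD5/CD6 experiment was also 0 with DESeq2 and was 1 when no fold threshold was set. All 13 genes called higher at 4 h in the LAT experiment were among the 21 of the other experiment. The share of all genes called higher in both experiments was not counted at 4 h or at 20 h. In bulk RNA, fewer expressing cells and less RNA per cell cannot be told apart.

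**Figure D1:**
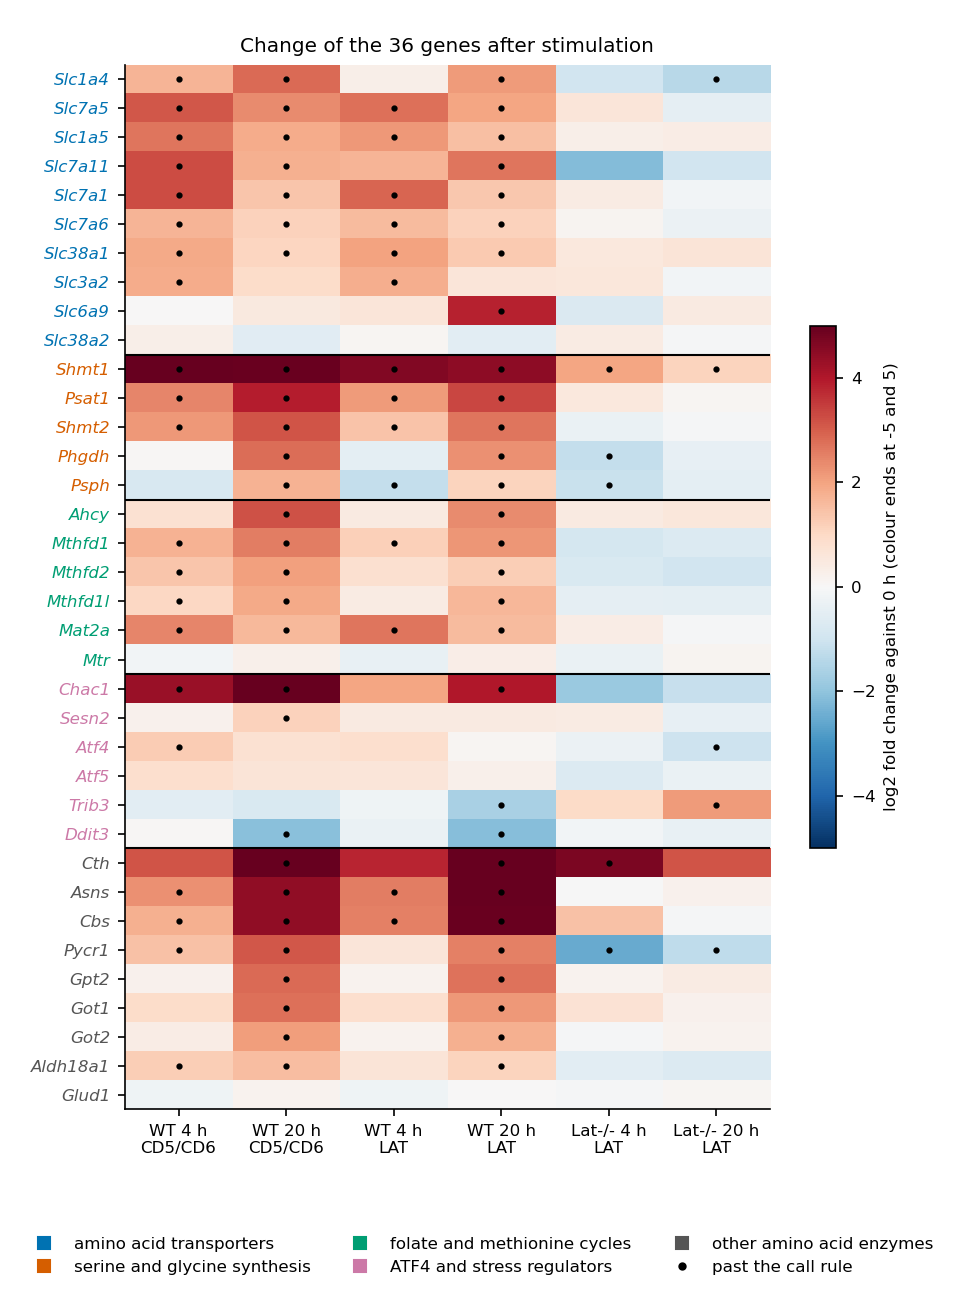
Color gives the log2 fold change against unstimulated cells of the same genotype and experiment for the 36 genes, grouped by role, and dots mark changes past the call rule. In each WT experiment 27 genes are called higher at 20 h, and in Lat-/- cells 2 are called higher at each time.

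The genes differed in when their mean was highest. From 4 h to 20 h, 12 of the 36 rose and 3 fell in WT cells from the CD5/CD6 experiment (8.74% and 12.2% of all genes), and 16 were higher and 5 lower in those of the LAT experiment (7.9% and 9.32%). Without the third 4 h library the latter counts were 15 and 4, and Mthfd1 and Trib3 lost their calls. Of the 10 transporters, 8 and 7 had their highest mean at 4 h. All 9 of the other amino acid enzymes, 4 of 5 serine and glycine enzymes and 5 of 6 folate and methionine enzymes had theirs at 20 h in both experiments. The enzymes with their highest mean at 4 h were Shmt1 and Mat2a in both. These counts rest on group means alone. They include Slc38a2, Glud1 and Mtr, which were called in no WT comparison of either experiment. The share of all genes with their highest mean at each time was not counted.

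**Figure D2:**
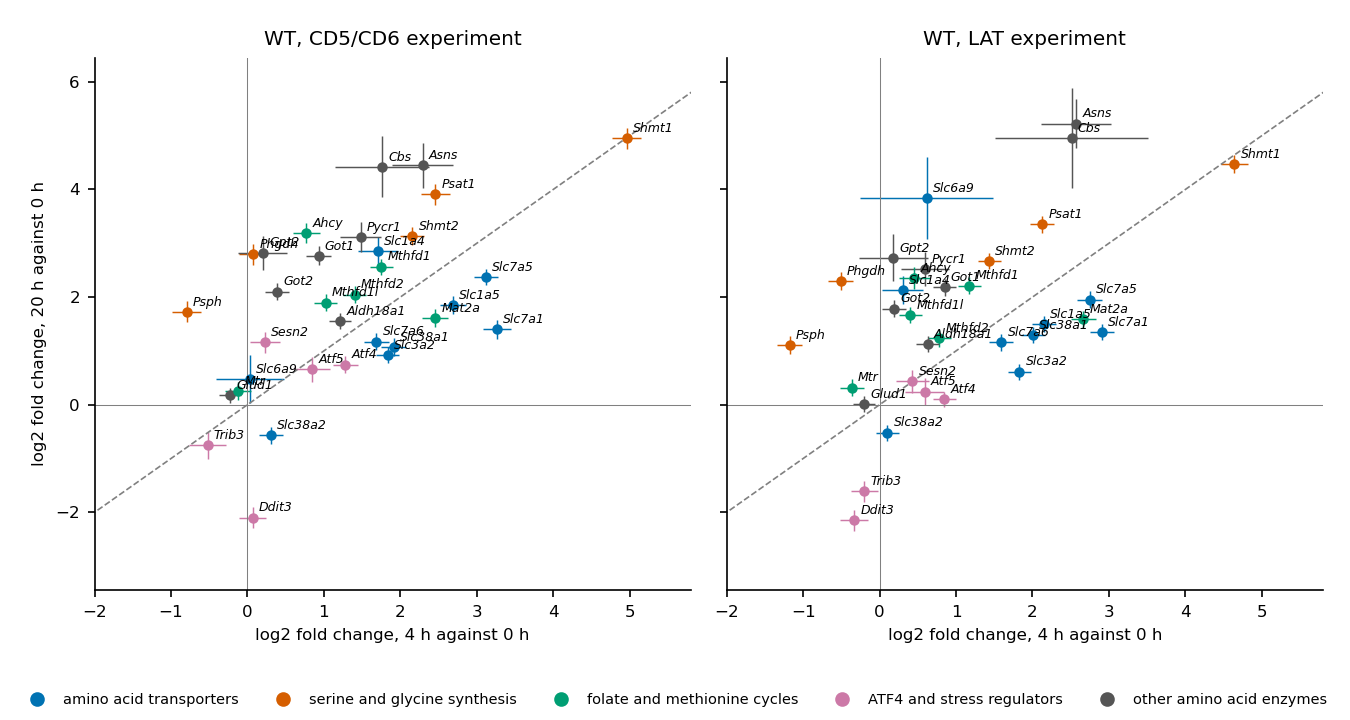
Each point is 1 of 33 genes in WT cells, with the log2 fold change at 4 h on the x axis and at 20 h on the y axis and SE as bars; Cth, Chac1 and Slc7a11, which had few counts, are left out. Slc7a1 lies below the line of equal change, Phgdh and Psph above it, and Shmt1 on it at 4.96 and 4.95 in the CD5/CD6 experiment.

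Slc7a5 (ENSMUSG00000040010.10, chr8:121881150-121907694) (GRCm38, as the tables give it) encodes LAT1, a carrier of leucine and other large neutral amino acids. In WT cells from the CD5/CD6 experiment it was at 83.1, 74.4 and 97.6 CPM at 0 h, 767, 723 and 723 CPM at 4 h and 451, 464 and 407 CPM at 20 h. The times did not overlap, and the gene was 8.67-fold higher at 4 h (adjusted p = 4.4e-29) and 5.18-fold higher at 20 h (adjusted p = 1.5e-23, edgeR) than at 0 h. Slc3a2, the heavy chain CD98 that LAT1 pairs with, rose at 4 h (log2 fold change 1.84 ± 0.15, where ± is the SE, taken as the size of the change over the square root of edgeR's F) and was 0.92 ± 0.15 above 0 h at 20 h, short of the threshold. In the LAT experiment the 20 h changes were 1.95 ± 0.15 for Slc7a5 and 0.62 ± 0.15 for Slc3a2.

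Slc7a1, a carrier of arginine and lysine, was at 136, 122 and 124 CPM at 0 h, 1300, 1342 and 1024 CPM at 4 h and 393, 350 and 264 CPM at 20 h in the same cells. It rose 9.59-fold by 4 h (adjusted p = 4e-26) and then fell by 1.86 ± 0.17 on the log2 scale between 4 h and 20 h (adjusted p = 3.6e-15), and in the LAT experiment it fell by 1.56 ± 0.15 over that interval. Slc1a5, the glutamine and neutral amino acid carrier ASCT2, went from 86.6 to 130 CPM at 0 h to 620 to 677 CPM at 4 h and 360 to 376 CPM at 20 h. Slc38a1 and Slc7a6, carriers of glutamine and of basic and neutral amino acids, rose at 4 h by 1.91 ± 0.16 and 1.69 ± 0.17.

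Related transporters differed in level and time course. Slc1a4, the serine and alanine carrier ASCT1, was at 1.7, 2.62 and 2.42 CPM at 0 h, 9.13, 5.77 and 7.2 CPM at 4 h and 17.2, 16.7 and 14.9 CPM at 20 h. It was highest at 20 h, without overlap, while Slc1a5 was highest at 4 h. Per kilobase of gene model, the ratio of Slc1a4 to Slc1a5 was 0.0119 ± 0.0027 (SD, n = 3) at 4 h and 0.0469 ± 0.0026 at 20 h.

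Slc38a2, a glutamine and alanine carrier known to respond to amino acid shortage, was called in no WT comparison. It was at 280, 253 and 210 CPM at 0 h, 296, 326 and 296 CPM at 4 h and 173, 170 and 159 CPM at 20 h, and the ratio of Slc38a1 to Slc38a2 per kilobase was 0.392 ± 0.056 at 0 h and 1.2 ± 0.16 at 20 h (SD, n = 3). Slc7a11, the cystine carrier, had 2 to 8 counts per library at 0 h, 24 to 54 at 4 h and 12 to 18 at 20 h. Slc6a9, a glycine carrier, was called higher at 20 h in the LAT experiment, with 0 to 4 counts per library at 0 h and 28 to 45 at 20 h, and not in the CD5/CD6 experiment (0.48 ± 0.44). It shares 26.3% of its 50-base words with other annotated genes, so its counts are uncertain.

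**Figure D3:**
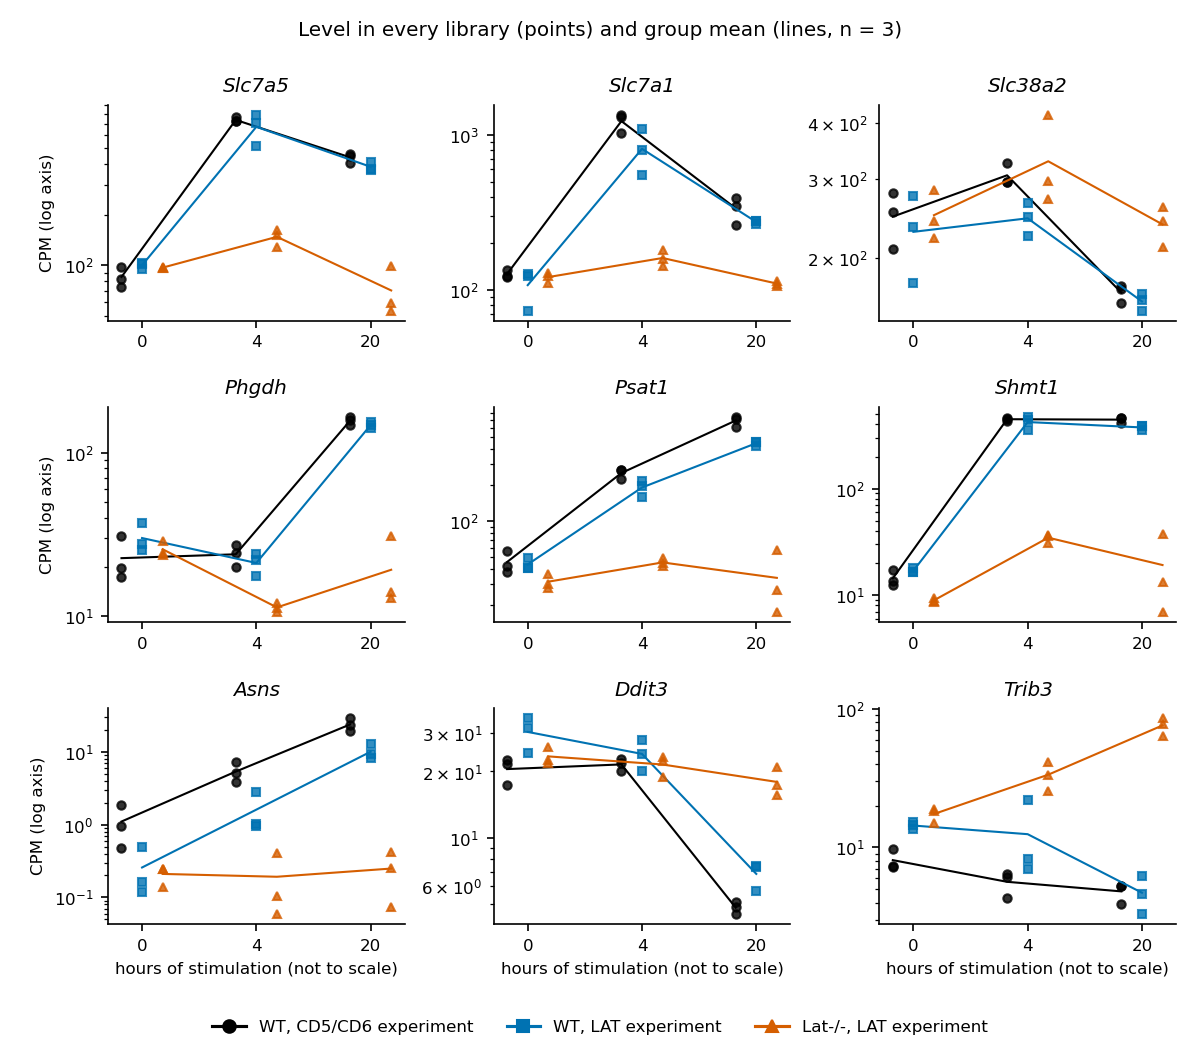
CPM on log axes for 9 genes in every library (points) with group means (lines, n = 3) at 0, 4 and 20 h in WT cells of both experiments and Lat-/- cells. Slc7a5 and Slc7a1 are highest at 4 h in WT cells and Phgdh, Psat1 and Asns at 20 h, and Trib3 at 20 h is at 64 to 85.5 CPM in Lat-/- cells.

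All 5 serine and glycine enzymes rose by 20 h in both experiments. Phgdh (ENSMUSG00000053398.11, chr3:98313170-98339990), the entry enzyme of serine synthesis, was at 17.4, 19.7 and 30.6 CPM at 0 h, 24.4, 20 and 27.1 CPM at 4 h and 147, 157 and 166 CPM at 20 h. Its 0 h and 4 h libraries overlapped (0.08 ± 0.19), and the change at 20 h was 2.79 ± 0.20 (adjusted p = 3.1e-21). Psph, the last enzyme of the pathway, was at 32.4, 31.1 and 41.5 CPM at 0 h, 21.3, 16.3 and 23 CPM at 4 h and 99.8, 111 and 137 CPM at 20 h, so its 4 h libraries were below both other times. The 4 h change was called in the LAT experiment (-1.18 ± 0.17, adjusted p = 2.9e-11) and was -0.79 ± 0.19 in the CD5/CD6 experiment. Phgdh shares 47.8% and Psph 8.82% of their 50-base words with other annotated genes, so part of their reads could have been counted elsewhere.

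Psat1 (ENSMUSG00000024640.9, chr19:15904678-15947337), the aminotransferase between these enzymes, rose at both times. It was at 42.9, 38 and 56.8 CPM at 0 h, 265, 224 and 267 CPM at 4 h and 614, 708 and 743 CPM at 20 h. The times did not overlap, and the change was 2.46 ± 0.19 at 4 h and 3.91 ± 0.20 at 20 h (adjusted p = 6.2e-29), with 3.35 ± 0.16 at 20 h in the LAT experiment.

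The SHMT enzymes convert serine to glycine, SHMT1 in the cytosol and SHMT2 in mitochondria. Shmt1 (ENSMUSG00000020534.14, chr11:60788104-60811718) had the largest 4 h change of the 36 genes in both experiments. It went from 12.5, 13.4 and 17.2 CPM at 0 h to 460, 429 and 455 CPM at 4 h and 412, 462 and 459 CPM at 20 h, where the 4 h and 20 h libraries overlapped. It was 31.2-fold higher at 4 h (adjusted p = 3.1e-36), and 24.9-fold higher in the LAT experiment. Shmt2 rose in steps, from 82.9 to 110 CPM through 416 to 433 CPM to 820 to 879 CPM. The ratio of Shmt1 to Shmt2 per kilobase was 0.12 ± 0.0058 at 0 h, 0.841 ± 0.014 at 4 h and 0.423 ± 0.023 at 20 h (SD, n = 3), and in WT cells from the LAT experiment it was 0.107 ± 0.018, 0.973 ± 0.071 and 0.367 ± 0.011. In level per kilobase, Atf4 ranked first of the 36 genes at 0 h and 4 h and Shmt2 at 20 h in WT cells from the CD5/CD6 experiment.

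Mthfd1, Mthfd1l and Mthfd2, which pass the carbon unit along in the cytosol and mitochondria, were higher at 20 h in both experiments. Mthfd1 was at 80.1, 84.3 and 85.5 CPM at 0 h, 315, 280 and 247 CPM at 4 h and 518, 532 and 428 CPM at 20 h, a 20 h change of 2.56 ± 0.15. Mthfd2 went from 66.1 to 74.4 CPM through 179 to 190 CPM to 264 to 314 CPM. Neither gene's times overlapped.

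Mat2a and Ahcy, at the ends of the methylation cycle, had different time courses. Mat2a, which makes the methyl donor S-adenosylmethionine, was at 25.3 to 30.8 CPM at 0 h, 148 to 164 CPM at 4 h and 82.7 to 88.1 CPM at 20 h. It shares 14.2% of its 50-base words with other annotated genes. Ahcy, which clears the product of methylation, was at 5.82, 4.7 and 5.41 CPM at 0 h, 8.75, 9.63 and 8.8 CPM at 4 h and 42.3, 51.8 and 50.7 CPM at 20 h, a 20 h change of 3.18 ± 0.18. The counts of Ahcy are uncertain, since 68.7% of its 50-base words occur in other annotated genes, mostly Gm4737. Mtr, methionine synthase, was not called, with 20 h changes of 0.26 ± 0.17 and 0.32 ± 0.15 in the CD5/CD6 and LAT experiments.

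The regulators moved in both directions. Atf4 was at 217, 231 and 190 CPM at 0 h, 491, 531 and 527 CPM at 4 h and 325, 371 and 373 CPM at 20 h. It was called higher at 4 h in the CD5/CD6 experiment (1.28 ± 0.16, adjusted p = 1.9e-10) and stayed short of the threshold in the LAT experiment (0.85 ± 0.15). Atf5, a related factor, was called in neither experiment and had 20 h changes of 0.66 ± 0.23 and 0.24 ± 0.26. Sesn2, an inhibitor of mTORC1 signaling, rose at 20 h in the CD5/CD6 experiment, with 7.44 to 11.9 CPM at 0 h and 18 to 26.1 CPM at 20 h (1.16 ± 0.20), a call that was lost without the second WT library at 20 h, and was at 0.44 ± 0.21 in the LAT experiment. Chac1, which degrades glutathione, had 0, 0 and 3 counts at 0 h and 27, 61 and 36 counts at 20 h.

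Ddit3 (ENSMUSG00000025408.15, chr10:127290774-127296288) fell in both experiments. It was at 17.4, 22.5 and 21.6 CPM at 0 h, 22.8, 20.1 and 21.7 CPM at 4 h and 4.48, 5.09 and 4.83 CPM at 20 h. The 0 h and 4 h libraries overlapped and all 20 h libraries were lower, with a change of -2.10 ± 0.19 (adjusted p = 2.4e-16) and of -2.14 ± 0.19 in the LAT experiment. Trib3 fell at 20 h in WT cells from the LAT experiment (-1.61 ± 0.19) and was at -0.75 ± 0.25 in the CD5/CD6 experiment, short of the threshold.

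Of the 9 other amino acid enzymes, 8 rose by 20 h in both experiments, and Glud1, glutamate dehydrogenase, was not called (0.17 ± 0.14 and 0.01 ± 0.15). Asns (ENSMUSG00000029752.12, chr6:7675169-7693254), asparagine synthetase, was at 1.86, 0.482 and 0.97 CPM at 0 h, 7.24, 3.81 and 5.07 CPM at 4 h and 19.4, 29.1 and 23.1 CPM at 20 h. It rose without overlap at each step, to 21.8-fold above 0 h (adjusted p = 1.4e-15), and in WT cells from the LAT experiment it reached 8.26 to 12.7 CPM.

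Got1 and Got2, the cytosolic and mitochondrial aspartate aminotransferases, rose by 2.77 ± 0.17 and 2.10 ± 0.16 at 20 h. Got2 shares 25.6% of its 50-base words with other annotated genes. The proline enzymes Aldh18a1 and Pycr1 rose by 1.56 ± 0.15 and 3.12 ± 0.28, and Gpt2, mitochondrial alanine aminotransferase, by 2.82 ± 0.32. The transsulfuration genes, which make cysteine from homocysteine, were near the floor at 0 h. Cth had 0, 0 and 0 counts at 0 h and 86, 140 and 83 counts at 20 h in the CD5/CD6 experiment, at least 32.8-fold higher when 3 counts per library are taken as the floor, and at least 16.3-fold higher in the LAT experiment. Cbs had 5, 0 and 5 counts at 0 h and 92, 60 and 41 counts at 20 h.

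To ask which changes need LAT, Lat-/- cells were compared with WT cells of the same experiment. In unstimulated cells 0 genes were called higher and 0 lower with edgeR (0.148% and 0.814% of all genes), and DESeq2 also called 0. Of the 36 genes, 5 had an unadjusted p under 0.05, a count not set beside the share of all genes. Among the 5 was Shmt1, at 9.38, 8.62 and 8.78 CPM in Lat-/- and 17.9, 16.4 and 16.4 CPM in WT cells. The groups did not overlap, but the difference of -0.92 ± 0.16 (adjusted p = 2.9e-06) stayed under 2-fold. At 4 h, 18 genes were lower and 1 was higher in Lat-/- cells (6.23% and 5.51% of all genes; 19 and 1 without the third WT library), and at 20 h 26 were lower and 2 higher (12.3% and 12.1%).

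Within Lat-/- cells, stimulated cells were compared with unstimulated ones. At 4 h, 2 were higher and 3 lower (3.08% and 3.62% of all genes), at 20 h 2 were higher and 3 lower (2.14% and 2.07%), and between 4 h and 20 h 2 were higher and 1 was lower (2% and 2.1%). With no fold threshold, 10 were higher and 8 lower at 4 h, and 3 and 9 at 20 h. The shares of all genes above hold for the 2-fold rule only, and those with no fold threshold are not given. Without the third library at 20 h, 1 was higher and 4 were lower between 4 h and 20 h. The median log2 fold change of the 36 genes was -0.03 at 4 h and -0.10 at 20 h. Their summed share of CPM was 0.229% ± 0.0084 (SD, n = 3), 0.245% ± 0.012 and 0.211% ± 0.023 at 0, 4 and 20 h in Lat-/- cells, and 0.233% ± 0.0051, 0.635% ± 0.092 and 0.61% ± 0.015 in WT cells.

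The responses were then compared with an interaction term. At 4 h the response of 18 genes was lower and that of 1 higher in Lat-/- than in WT cells (4.34% and 4.37% of all genes), and at 20 h that of 25 was lower and that of 2 higher (9.35% and 10.1%). The difference at 20 h was -0.64 ± 0.21 for Slc38a1, which was not called. The summed level of 3 activation markers was 540 to 657 CPM at 4 h and 62.8 to 192 CPM at 20 h in Lat-/- cells, and 1962 to 2638 and 1190 to 1218 CPM in WT cells. Foxp3, the marker of regulatory T cells, was at 16.3 to 24.5 CPM in Lat-/- and 50.3 to 62.4 CPM in WT cells at 0 h. The part of either in these differences was not tested.

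**Figure D4:**
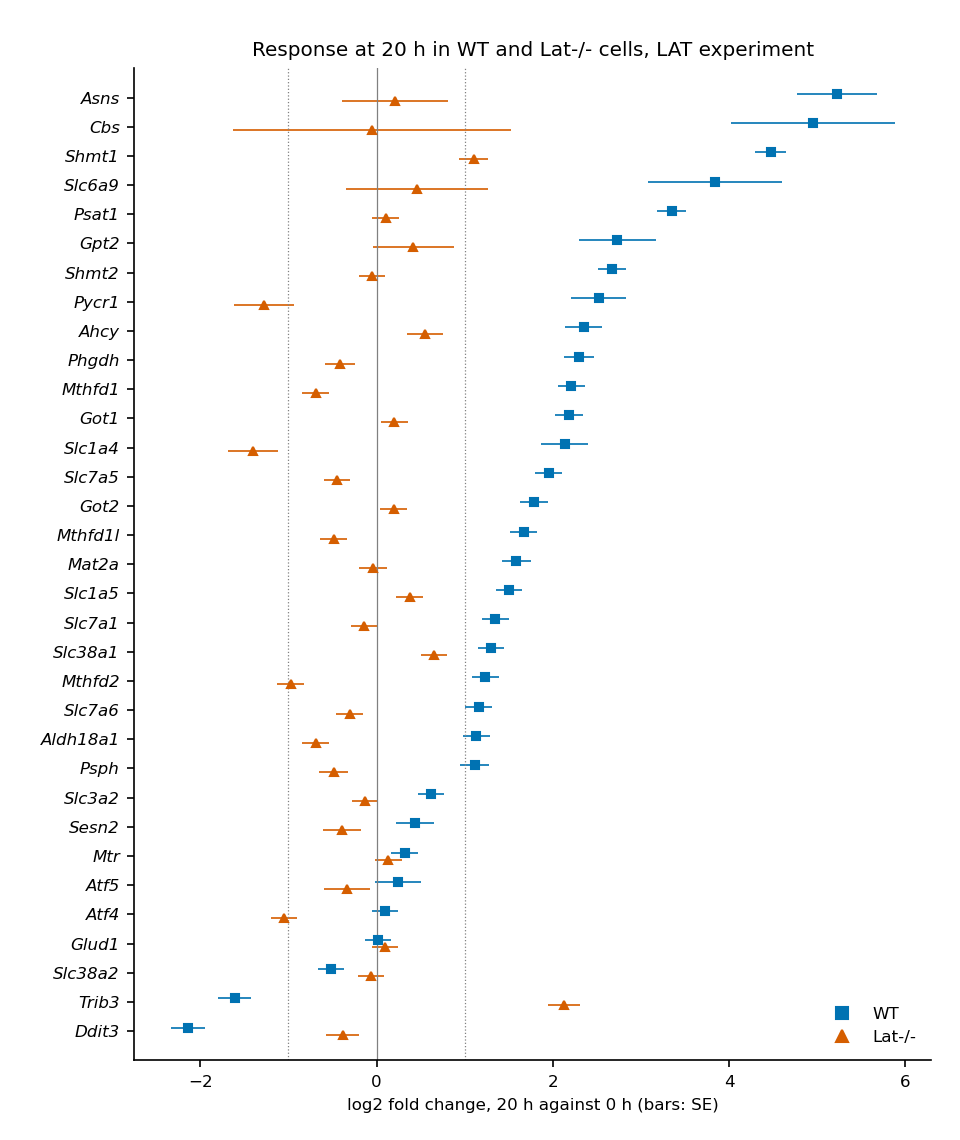
Log2 fold change at 20 h against 0 h with its SE in WT and Lat-/- cells from the LAT experiment for 33 genes, with lines at the 2-fold threshold. In WT cells changes reach 5.22 for Asns, in Lat-/- cells most genes lie within 2-fold, and Trib3 moves in opposite directions in the 2 genotypes.

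Slc7a5 in Lat-/- cells was at 97.6, 96.3 and 96.2 CPM at 0 h, 163, 152 and 128 CPM at 4 h and 53.4, 59.3 and 99.2 CPM at 20 h. WT cells of that experiment had 706, 791 and 514 CPM at 4 h and 369, 377 and 415 CPM at 20 h. Every Lat-/- library was below every WT library at both times, and the response was lower by 2.13 ± 0.21 at 4 h (adjusted p = 3e-21) and by 2.41 ± 0.21 at 20 h (adjusted p = 9.1e-28, edgeR). Slc1a4 moved against its WT direction, from 4.39, 3.26 and 6.18 CPM at 0 h to 1.57, 0.26 and 3.45 CPM at 20 h (-1.41 ± 0.29), a call that was lost without the second Lat-/- library at 20 h. For Slc38a2 the difference in the 20 h response was 0.45 ± 0.21 and was not called.

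Psat1 was at 28, 36.4 and 30 CPM at 0 h and 26.7, 17.4 and 57.4 CPM at 20 h in Lat-/- cells, against 427, 459 and 454 CPM in WT cells at 20 h. The third Lat-/- library was the highest and still far below WT, and the difference in response was -3.25 ± 0.22 (adjusted p = 2.4e-47). Phgdh, Psph and Pycr1 fell at 4 h in Lat-/- cells, where the call of Psph was lost without the second unstimulated Lat-/- library. The 4 h change of Psph was -1.12 ± 0.17 in Lat-/- and -1.18 ± 0.17 in WT cells, a difference of 0.05 ± 0.24, and the difference in its 20 h response was -1.60 ± 0.23. Asns had 5, 2 and 10 counts at 20 h in Lat-/- cells, and its 20 h response was lower by 5.02 ± 0.79.

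Shmt1 was called higher in Lat-/- cells at both times. It went from 9.38, 8.62 and 8.78 CPM at 0 h to 36.6, 31.2 and 36 CPM at 4 h, a 3.88-fold rise without overlap (adjusted p = 6e-31). At 20 h it was at 13.4, 6.87 and 37.2 CPM, and the call at that time (1.10 ± 0.16) was lost without the third library, where the change was 0.17 ± 0.18. Cth was also called higher at 4 h in Lat-/- cells, with 0, 0 and 8 counts, and that call rests on the third library.

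Trib3 (ENSMUSG00000032715.9, chr2:152337422-152344032) rose in Lat-/- cells and fell in WT cells. In Lat-/- cells it was at 18.2, 15 and 19.1 CPM at 0 h, 25.6, 33.3 and 41.5 CPM at 4 h and 64, 85.5 and 78.3 CPM at 20 h. In WT cells it was at 13.5, 15.2 and 14.4 CPM at 0 h, 7.01, 8.25 and 22.1 CPM at 4 h and 3.29, 4.64 and 6.18 CPM at 20 h. The Lat-/- times did not overlap, and the third WT library at 4 h was above all WT libraries at 0 h. The 20 h change was 2.12 ± 0.18 in Lat-/- cells (adjusted p = 1.9e-29) and -1.61 ± 0.19 in WT cells, and the difference was 3.73 ± 0.26 (adjusted p = 3.6e-44). At 4 h the difference was 1.14 ± 0.25, and 1.87 ± 0.26 without the third WT library at 4 h. That 4 h call was lost when the first or second WT library or the third Lat-/- library at 4 h was left out.

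Ddit3 was the other gene with a higher 20 h response in Lat-/- cells. It was at 26, 22.5 and 21.8 CPM at 0 h and 17.3, 15.5 and 20.9 CPM at 20 h there, and at 31.6, 34.9 and 24.2 CPM and 5.73, 7.45 and 7.33 CPM in WT cells. The 20 h groups did not overlap, and the difference in response was 1.76 ± 0.26. Atf4 was at 260, 227 and 328 CPM at 0 h and 127, 115 and 151 CPM at 20 h in Lat-/- cells, and its response was lower by 1.12 ± 0.21 at 4 h and 1.15 ± 0.21 at 20 h, calls that were lost at both times without the third unstimulated Lat-/- library and at 4 h without the second Lat-/- library at 4 h. Of the 7 genes with the C/EBP-ATF element, 6 had a lower 20 h response in Lat-/- cells and Trib3 a higher one, where 69.4% of the 36 genes had a lower response. The calls of Chac1 and Slc7a11 among these rest on 2, 0 and 0 and 1, 5 and 0 counts in the Lat-/- libraries and were lost in 6 and 7 of the fits that left out 1 library. Without the third Lat-/- library at 20 h, 23 of the 36 genes had a lower and 2 a higher 20 h response than in WT cells, and within Lat-/- cells 1 gene was higher and 5 were lower at 20 h than at 0 h.

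To ask whether CD5 and CD6 change this program, each mutant was compared with the WT cells of the same experiment, time by time. The same WT libraries served all mutants at each time, so these comparisons are not independent. Of the 36 genes, 0 were called in any of the 9 comparisons with edgeR, and 0 with DESeq2. Of all genes, 0.0619%, 0.0743% and 0.0186% were called in Cd5-/- cells at 0, 4 and 20 h, 0%, 0.0031% and 0.0186% in Cd6-/- cells, and 0.0248%, 0.0434% and 0.0434% in Cd5-/-Cd6-/- cells. An unadjusted p below 0.05 was found for 2, 4 and 2 in Cd5-/- cells, 2, 0 and 0 in Cd6-/- cells and 0, 0 and 1 in Cd5-/-Cd6-/- cells. The share of all genes past that unadjusted p was not set beside these counts. Leaving out both 0 h libraries that go against their labels, a choice made after seeing the data, also gave 0. Of the 34 genes above 2 CPM in some group, 30 to 34 were within 0.5 of WT on the log2 scale.

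**Figure D5:**
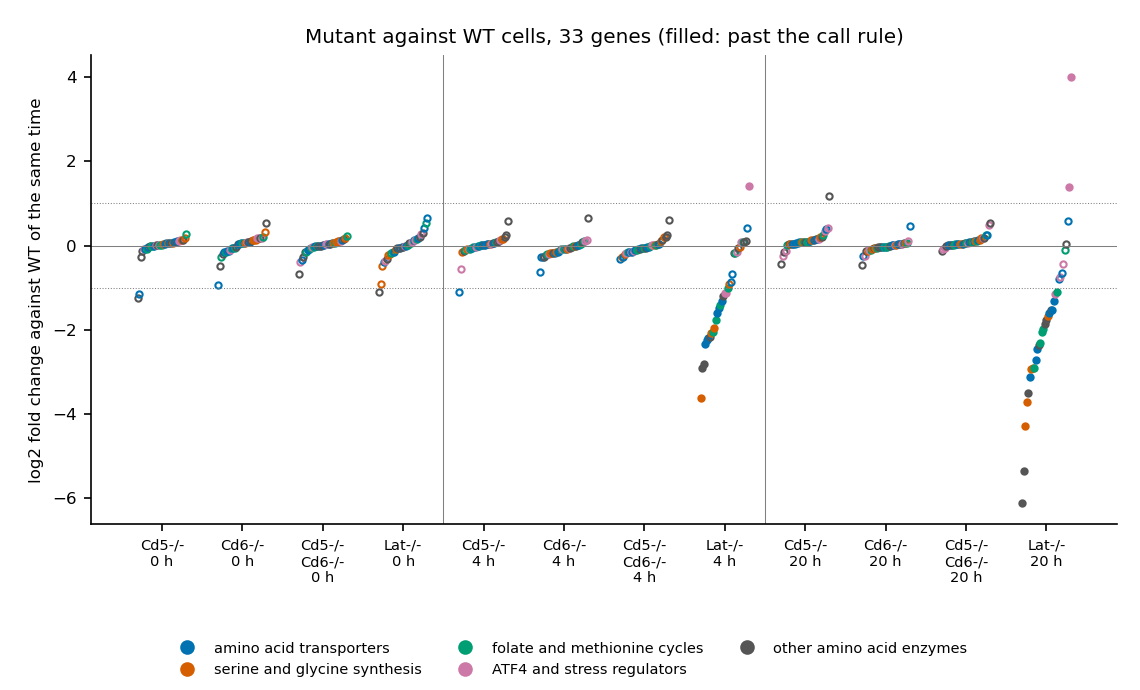
Each point is the log2 fold change of 1 of 33 genes in a mutant against WT cells of the same experiment and time, filled when past the call rule, with lines at the 2-fold threshold. No point is filled for Cd5-/-, Cd6-/- and Cd5-/-Cd6-/- cells, and in Lat-/- cells 18 and 26 of the 36 genes are called lower at 4 h and 20 h.

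Slc7a5 at 4 h was at 716, 712 and 729 CPM in Cd5-/-, 726, 683 and 592 CPM in Cd6-/- and 652, 653 and 683 CPM in Cd5-/-Cd6-/- cells. Its log2 differences from WT were -0.04 ± 0.14, -0.14 ± 0.14 and -0.15 ± 0.14, none of them called. Psat1 at 20 h was at 712, 729 and 934 CPM in Cd5-/-, 551, 656 and 735 CPM in Cd6-/- and 696, 719 and 913 CPM in Cd5-/-Cd6-/- cells, and each group overlapped with WT.

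Asns was the gene furthest from WT at 20 h in Cd5-/- cells. It was at 40.2, 26 and 95.7 CPM in Cd5-/-, 22.6, 29.1 and 52.4 CPM in Cd5-/-Cd6-/- and 22.9, 26.7 and 20.6 CPM in Cd6-/- cells. All of these overlapped with WT, and the third library was the highest in both lines that lack Cd5. The differences from WT were 1.18 ± 0.34 (adjusted p = 0.72, edgeR) in Cd5-/- and 0.54 ± 0.34 (adjusted p = 1) in Cd5-/-Cd6-/- cells. Sesn2 at 20 h was at 24.3, 33.5 and 28.1 CPM in Cd5-/- and 28.1, 35.4 and 27.2 CPM in Cd5-/-Cd6-/- cells, differences of 0.42 ± 0.19 and 0.49 ± 0.19. Trib3 at 20 h was at 5.4 to 7.06 CPM in Cd5-/- and 3.76 to 6.41 CPM in Cd5-/-Cd6-/- cells, and at 3.92 to 5.29 CPM in WT cells.

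Other genes of the same processes moved in both directions. Their counts at 20 h are to be read beside the shares of all genes called, which were 12.3% higher and 17.3% lower in WT cells from the CD5/CD6 experiment and 10.8% and 12.7% in those from the LAT experiment. Of 20 cytosolic aminoacyl-tRNA synthetases, which charge tRNAs with amino acids, 18 and 17 were higher and 0 lower after 20 h in WT cells from the CD5/CD6 and LAT experiments, among them Iars (2.28 ± 0.17), Mars (2.25 ± 0.15) and Aars (2.23 ± 0.16). In Lat-/- cells 0 were higher and 1 was lower at 20 h (2.14% and 2.07% of all genes), and the response of 17 was lower than in WT cells (9.35% of all genes). Of 23 other one-carbon genes, 11 and 10 were higher and 4 and 5 lower, the lower share in the CD5/CD6 experiment being near that of all genes. Tyms, which makes thymidylate, rose by 4.50 ± 0.21 in the CD5/CD6 experiment, and Tcn2, a carrier of vitamin B12, fell by 3.66 ± 0.25.

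Of 25 and 21 other transporters tested, 8 and 9 were higher and 9 and 3 lower at 20 h, the lower share in the LAT experiment being near that of all genes. The folate carrier Slc19a1 rose by 3.14 ± 0.17 and the mitochondrial serine carrier Sfxn1 by 2.30 ± 0.15, and the lysosomal amino acid carrier Slc36a1 fell by 2.40 ± 0.22. Of 25 and 24 further amino acid enzymes, 9 and 7 were higher and 4 and 3 lower, where the lower shares were near those of all genes. Bcat1, which transaminates branched-chain amino acids, rose by 7.95 ± 0.25 in the CD5/CD6 experiment. Of 26 and 25 other stress genes, 7 were higher in each experiment and 8 and 5 lower. Ppp1r15a, which restores translation after stress, fell by 4.29 ± 0.43 in the CD5/CD6 experiment, and Sesn1 changed by -1.47 ± 0.15 in WT and 1.28 ± 0.15 in Lat-/- cells from the LAT experiment.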

How the data were processed

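RNA-seq was measured in 36 libraries of the CD5/CD6 experiment and 18 of the LAT experiment, 3 per group. The authors deposited raw read counts per gene, made with featureCounts, in 1 table per experiment from stranded libraries; whether strand was used, and how reads matching several genes were treated, is not given in the sources used here. The 36 genes and the other gene lists were chosen with earlier results of these data known. Symbols came from a reference table that matched 54487 of 55385 identifiers. All per-sample columns were used.

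Genes with at least 1 count in an experiment were tested with edgeR 4.0.16 (quasi-likelihood test, TMM factors, 1 coefficient per genotype and time) in R 4.3.3, with Benjamini-Hochberg adjustment over all genes. A call needed an adjusted p under 0.05 and a change of more than 2-fold. The SE of a log2 fold change is its size divided by the square root of the quasi-likelihood F, so SEs of 2 changes need not add up to that of their difference where counts are low. Levels are TMM-scaled CPM. All 36 genes were eligible to be named. Per-library values were given for those called the same way in both WT experiments or differing in Lat-/- cells, at least 2 per role, and other lists gave up to 3 genes in each direction with the largest change. The scripts were tested on simulated data. Floors of 3 counts cover counting error only. Shared sequence was counted as 50-base words found in other annotated genes.

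Same-numbered libraries deviated together in part: the mean correlation of deviations from group means was 0.229 for same and -0.113 for other numbers in the CD5/CD6 experiment, and 0.0705 and -0.0344 in the LAT experiment. Alternatives were RLE factors, library totals, edgeR's filterByExpr, DESeq2 1.42.0, a replicate block, only the groups compared, no fold threshold, and leaving out each library. Tcf7 was not analysed here. Some genes of the other lists are not reported here.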

Additional observations from a re-analysis of the deposited data

Results flagged for a closer look

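The 4 h or 20 h response of 46 gene and time pairs differed between Lat-/- and WT cells by the interaction term of edgeR's quasi-likelihood test, at more than 2-fold and an adjusted p under 0.05. Values are log2 differences, Lat-/- minus WT, each from 3 libraries a group, and their causes were not tested. Among the transporters, the 4 h difference was called for Slc7a5 (-2.13), Slc3a2 (-1.28), Slc1a5 (-1.85), Slc1a4 (-1.27), Slc38a1 (-1.48), Slc7a1 (-2.50) and Slc7a6 (-1.46). At 20 h it was called for Slc7a5 (-2.41), Slc1a5 (-1.13), Slc1a4 (-3.54), Slc7a1 (-1.49), Slc7a6 (-1.46), Slc7a11 (-3.65) and Slc6a9 (-3.37). Among the serine and glycine enzymes, the 4 h difference was called for Psat1 (-1.59), Shmt1 (-2.68) and Shmt2 (-1.76). At 20 h it was called for Phgdh (-2.71), Psat1 (-3.25), Psph (-1.60), Shmt1 (-3.37) and Shmt2 (-2.72). Among the folate and methionine enzymes, the 4 h difference was called for Mthfd1 (-2.05), Mthfd2 (-1.56) and Mat2a (-2.30). At 20 h it was called for Mthfd1 (-2.90), Mthfd1l (-2.16), Mthfd2 (-2.21), Mat2a (-1.63) and Ahcy (-1.80). Among the ATF4 pathway and stress regulators, the 4 h difference was called for Atf4 (-1.12), Atf5 (-1.28) and Trib3 (1.14). At 20 h it was called for Atf4 (-1.15), Ddit3 (1.76), Trib3 (3.73) and Chac1 (-5.16). Among the other amino acid enzymes, the 4 h difference was called for Asns (-2.59), Aldh18a1 (-1.17) and Pycr1 (-3.12). At 20 h it was called for Asns (-5.02), Aldh18a1 (-1.82), Pycr1 (-3.80), Gpt2 (-2.32), Got1 (-1.98) and Got2 (-1.59). The 20 h values of Chac1 and Slc7a11 rest on at most 5 counts in any Lat-/- library at 20 h. The 20 h call was lost in 6 of the fits that left out 1 library for Chac1 and in 7 for Slc7a11, and the 4 h call in 3 each for Slc1a4 and Trib3.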

How the results depend on the processing

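Of the counts of called genes under all alternatives, 588 stayed within 1.5 times the value in the report and 38 moved. Counts that were 0 and stayed 0 are among the 588, such as those of Cd5-/-, Cd6-/- and Cd5-/-Cd6-/- cells against WT. With no fold threshold, the genes lower in WT cells from the CD5/CD6 experiment were 1 at 4 h, 3 at 20 h and 11 between 4 h and 20 h, and in WT cells from the LAT experiment 2 at 4 h and 11 between 4 h and 20 h. In Lat-/- cells, 10 were then higher and 8 lower at 4 h, 9 lower at 20 h, and 5 higher and 9 lower between 4 h and 20 h, while against WT 1 was lower at 0 h and 2 higher at 4 h. The shares of all genes called with no fold threshold are not given. With library totals, 1 gene was lower at 4 h in WT cells from the CD5/CD6 experiment and 3 between 4 h and 20 h in those of the LAT experiment. With filterByExpr, DESeq2 or only the groups compared, 1 gene was higher in Lat-/- cells at 4 h and 1 between 4 h and 20 h. With filterByExpr 1 was lower at 20 h, and 0 had a higher 4 h response than in WT cells. Leaving out 1 library at a time gave 1 to 3 genes higher at 4 h, 1 to 2 higher and 0 to 5 lower at 20 h, and 1 to 3 higher and 0 to 4 lower between 4 h and 20 h in Lat-/- cells, and 0 to 1 with a higher 4 h response. The causes were not tested. With a replicate block, 13 genes were higher between 4 h and 20 h in WT cells from the CD5/CD6 experiment, 27 were lower in Lat-/- than WT cells at 20 h, 23 had a lower 20 h response, and no other count of called genes changed. The change of Cth at 4 h in Lat-/- cells was gone without the third 4 h library (0.00, up to 5.36 without another), and the sign turned for Pycr1 between 4 h and 20 h (-0.23 without the third 20 h library, up to 1.86 without another). With only the groups compared, the median of all genes at 20 h in WT cells was -0.38 in the CD5/CD6 and -0.14 in the LAT experiment.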
